A study of Mus musculus with 15 samples.

Results

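KEAP1 KO #1 is a cell line grown from 1 CRISPR-edited clone of LL2, a mouse Lewis lung carcinoma line, and it is compared here with the unedited parental line, LL2 WT. The members are the 3 RNA libraries of KEAP1 KO #1 and the 3 of LL2 WT, 6 of the 15 libraries of the study. The remaining libraries come from the clones KEAP1 KO #2 and KEAP1 KO #3 and from an NRF2 KO clone, each with 3. The edited cells had received a plasmid with a guide RNA, GFP and Cas9 and were sorted singly by GFP, whereas LL2 WT is the uncloned parent, so the edit and the history of this 1 clone cannot be told apart. RNA was sequenced as mRNA after a day of culture, and the values are CPM, the reads of a gene scaled to a common library total. The comparison asks which genes this clone expresses differently from its parent, and which of those differences the other KEAP1 KO clones lack.

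KEAP1 is an adaptor of a CUL3 ubiquitin ligase that binds the transcription factor NRF2 (gene Nfe2l2) and sends it to the proteasome. When electrophiles or oxidants modify KEAP1, or when it is lost by mutation, NRF2 accumulates, pairs with small MAF proteins and binds antioxidant response elements near genes of glutathione synthesis, quinone reduction, drug export and NADPH supply. Loss of KEAP1 is a recurrent event in lung cancer.

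A gene was tested if its CPM summed to 3 or more over the 15 libraries, which kept 14652 genes. A gene is called higher or lower if its adjusted p was under 0.05 and its log2 fold change was beyond 1 in limma, fitted to log2(CPM + 0.1). Fold changes are given on that scale as KEAP1 KO #1 minus LL2 WT with their SE, n = 3 and 3, and CPM values are listed in the order of replicates 1, 2 and 3. For each gene, SEs and p-values use 1 estimate of the spread that the 5 lines share. The methods give an average read depth for the series, but the files hold no depth per library. At that average 3 reads are about 0.1 CPM, and a gene listed at 0 is described only as such.

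The libraries of KEAP1 KO #1 resembled one another more than those of LL2 WT did. Spearman's correlation over genes was 0.983 to 0.986 within the clone and 0.961 to 0.983 within LL2 WT. Replicate 3 of LL2 WT stood apart, since replicate 2 of LL2 WT had a correlation of 0.961 with it and of 0.963 to 0.969 with the 3 libraries of KEAP1 KO #1. Results that rest on replicate 3 of LL2 WT are marked below. Replicate 3 of each other line deviated in part in the same direction, as given at the end. Lung epithelial markers were nearly absent from the 6 libraries, with a summed level of 0.911 to 2.66 CPM in the parental line and 0.674 to 1.45 CPM in the clone and with 3 of 8 listed at 0 in both lines. Epcam and Cdh1 were also near 0, while the keratins Krt8 and Krt18 averaged 102 and 534 CPM in the parental line and 75.3 and 296 CPM in the clone. Leukocyte markers summed to at most 2.101 CPM in the parental line and 1.02 CPM in the clone, and Pecam1 and the other endothelial markers to at most 3.70 and 4.85 CPM.

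Keap1 (chr9:21229730-21239361, GRCm38) was measured at 24.0, 21.98 and 22.9 CPM in the parental line and at 12.17, 10.8 and 12.5 CPM in the clone. All 3 clone libraries lay below all 3 parental ones, and the log2 fold change of -0.95 ± 0.21 (adjusted p = 0.00668) stopped short of the required size. The transcript was lower in the other clones, averaging 5.53 ± 1.57 CPM (SD, n = 3) for KEAP1 KO #2 and 5.58 ± 1.60 CPM for KEAP1 KO #3. Directly compared, KEAP1 KO #1 kept more Keap1 mRNA than KEAP1 KO #2 (log2 difference 1.12 ± 0.21, adjusted p = 0.00497) and than KEAP1 KO #3 (1.11 ± 0.21, adjusted p = 0.00498). Whether the remaining reads cover the edited site cannot be read from gene totals. Nfe2l2 stood at 179, 170 and 208 CPM in the parental line and at 87.0, 99.0 and 103 CPM in the clone, which also missed the size threshold (log2 fold change -0.94 ± 0.12, adjusted p = 0.000196). With median-ratio rescaling, which removes the small upward shift of all genes described next, both passed it, at -1.06 for Keap1 and -1.05 for Nfe2l2.

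Against LL2 WT, 667 genes were called higher in KEAP1 KO #1, 4.55% of those tested, and 584 were called lower, 3.99%. The median log2 fold change over all genes tested was 0.113, and the higher calls made up 53.3% of the calls. Median-ratio rescaling, which brings that median near 0, gave 553 higher and 724 lower calls, a share of 43.3%, and quantile normalisation gave 605 and 751, a share of 44.6%. The balance between rises and falls therefore turned with the scaling. It turned with other settings too: the share of rises was 47.3% with 1 CPM added in place of 0.1 and 48.6% with replicate 3 of every line left out. Without replicate 3 of LL2 WT alone it was 58.25%. The 3 libraries of each line did not overlap for 660 of the 667 higher genes and 572 of the 584 lower ones, against 37.0% of all genes tested. The calls rest on the same libraries, so this is a description and no separate evidence. Among the calls, 259 rises and 240 falls exceeded 2 on the log2 scale. Under all 16 alternative settings described at the end, 278 of the 667 rises and 264 of the 584 falls kept their call. Some calls were of weakly expressed genes: 157 of the higher genes and 78 of the lower ones stayed under 1 CPM even in the line with more of them. Of the 14652 genes tested, 11676 averaged at least 1 CPM over the 15 libraries. That measure is not the same, so no excess of weak genes among the calls is claimed.

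**Figure D1:**
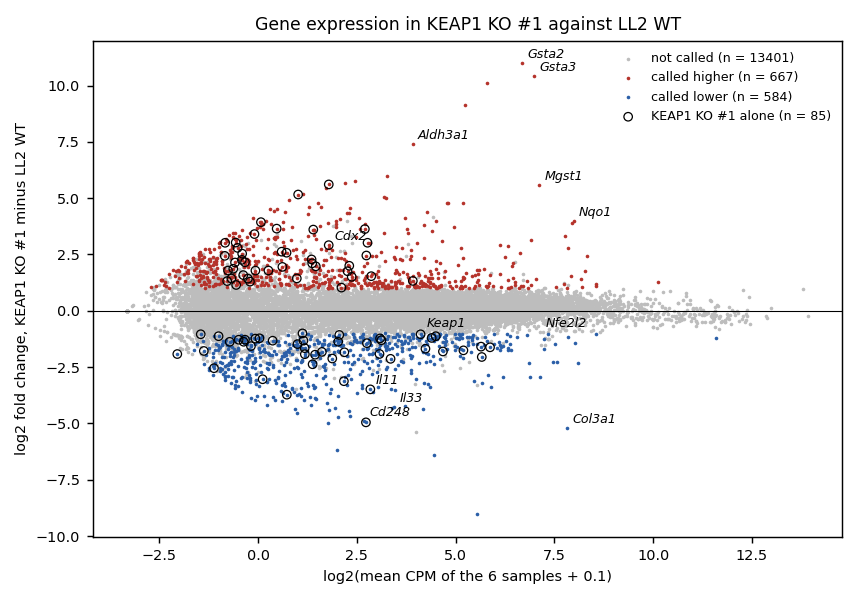
Each point is 1 of the 14652 genes tested, with the log2 of its mean CPM over the 6 libraries plus 0.1 on the horizontal axis and its log2 fold change, KEAP1 KO #1 minus LL2 WT, on the vertical axis. The 667 genes called higher are red, the 584 called lower are blue, and circles mark the 41 and 44 genes that set this clone apart from the other KEAP1 KO clones.

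Sequence around the start sites of genes changed in this clone is shown for reference, because NRF2 is known to act through a short element there. The antioxidant response element core TGACNNNGC was searched on both strands of RefSeq windows (GRCm38.p6) that run from 250 bases before to 50 after each start. The stretches below come from genes of NRF2-related functions that are described later, and from Il1rl1, on which the clones disagree. The Il1rl1 window (chr1:40439379-40439678) lies inside the gene as annotated (chr1:40429570-40465415), at a start downstream of its first position. All stretches were picked from windows that hold a match, and windows without one are not shown. Each is written 5′ to 3′ on the gene's strand, and capitals mark the match, which reads GCNNNGTCA where it lies on the opposite strand.
Gsta3, chr1:21240428-21240508, plus strand: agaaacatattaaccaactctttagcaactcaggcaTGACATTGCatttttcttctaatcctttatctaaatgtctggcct
Mgst1, chr6:138140435-138140515, plus strand: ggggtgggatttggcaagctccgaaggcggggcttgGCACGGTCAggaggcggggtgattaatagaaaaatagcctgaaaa
Gclm, chr3:122245387-122245467, plus strand: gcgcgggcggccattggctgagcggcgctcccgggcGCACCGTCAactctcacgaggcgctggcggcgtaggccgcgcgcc
Txnrd1, chr10:82859078-82859158, plus strand: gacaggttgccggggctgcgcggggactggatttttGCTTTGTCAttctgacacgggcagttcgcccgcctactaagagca
Me1, chr9:86695876-86695956, minus strand: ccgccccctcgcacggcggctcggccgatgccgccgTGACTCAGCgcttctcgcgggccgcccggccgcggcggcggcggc
Il1rl1, chr1:40439505-40439585, plus strand: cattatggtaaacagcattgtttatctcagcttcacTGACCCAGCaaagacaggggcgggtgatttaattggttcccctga

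The core was no more frequent near the genes called higher than near genes in general. It lay in the window of 75 of 460 matched higher genes (16.3%), of 60 of 403 matched lower genes (14.9%) and of 1692 of all 10126 matched genes tested (16.7%). Over all 27025 genes with a window the share was 13.99%. Of the genes that set this clone apart, 2 of 23 matched higher ones and 6 of 28 matched lower ones held it. A match of these letters is not a bound site, and elements outside the window were not searched.

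Many of the largest rises were in enzymes that detoxify reactive molecules. Genes of other functions also rose steeply, among them Selp (log2 fold change 5.98) and the keratin Krt76 (5.75), both from low parental levels. Of 24 tested keratin, desmosome and tight junction genes, 5 rose and 2 fell. Of 38 tested genes of carbonyl, quinone and xenobiotic metabolism, 15 rose and 0 fell, and 12 of the 15 were also called higher in both other KEAP1 KO clones. The lists of genes used here were drawn up with earlier results of these data known, and the median log2 fold change of this one was 0.54 against 0.113 over all genes. List counts here and below are to be read beside 4.55% of all genes tested called higher and 3.99% called lower. The 51 lists held only 163 of the 667 higher genes and 153 of the 584 lower ones, so most called genes lie outside them. Nqo1, which reduces quinones by 2 electrons at once, rose from 28.3, 36.5 and 26.1 CPM to 545, 409 and 476 CPM (log2 fold change 3.97 ± 0.14, adjusted p = 8.53e-10). Aldh3a1, an aldehyde dehydrogenase, went from 0.127, 0.0791 and 0.0228 CPM to 36.5, 17.9 and 35.1 CPM (adjusted p = 1.24e-07), and its fold is uncertain because the parental values are so low. Cbr3, a carbonyl reductase, rose from 3.66, 5.82 and 3.47 to 68.4, 53.9 and 51.5 CPM, and Adh7, an alcohol dehydrogenase that also oxidises retinol, from 6.70, 5.49 and 3.84 to 46.0, 46.0 and 42.3 CPM. Ugt1a6a, a glucuronosyltransferase, reached 41.2, 41.0 and 45.02 CPM from 2.21, 1.51 and 5.16 CPM, and since the genes of its locus share exons, its reads may be split among them.

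Glutathione transferases joined them, with 6 of 22 tested members higher and 1 lower. Gsta1 and Gsta2 were listed at 0 in every LL2 WT library and reached 112, 115 and 106 CPM and 179, 220 and 214 CPM in KEAP1 KO #1. These genes are near-identical copies, so the division of reads between them is uncertain. Gsta3 went from 0.179, 0.0343 and 0.0718 CPM to 268, 221 and 274 CPM (adjusted p = 7.65e-10). Mgst1, the microsomal transferase, had a measurable parental level of 5.09, 4.82 and 7.11 CPM and rose to 297, 254 and 267 CPM (log2 fold change 5.58 ± 0.20, adjusted p = 1.19e-09). Of 12 genes of glutathione synthesis and turnover, 4 rose, none of the 12 fell, and all 4 were shared by both other clones. Gclc and Gclm, the catalytic and the modifier subunit of glutamate-cysteine ligase, rose from 37.0, 44.4 and 38.3 to 403, 400 and 386 CPM and from 57.4, 76.4 and 42.2 to 410, 423 and 366 CPM. Gsr, glutathione reductase, rose by 1.19 ± 0.11 on the log2 scale.

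Slc7a11, the cystine importer that feeds glutathione synthesis, rose less in this clone than in the others. Its values were 5.54, 1.81 and 5.41 CPM in the parent, 13.98, 21.3 and 23.1 CPM in this clone, and on average 52.5 ± 5.0 and 99.6 ± 4.1 CPM (SD, n = 3) in KEAP1 KO #2 and #3. The direct log2 differences were -1.46 ± 0.43 (adjusted p = 0.0443) and -2.38 ± 0.43 (adjusted p = 0.00326).

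Some genes of NADPH supply and thiol reduction rose by smaller folds. In the pentose phosphate and NADPH list 3 of 14 tested genes rose and 0 fell. In the peroxide and thiol list 2 of 23 (8.70%) rose and 0 fell, against 4.55% of all genes called higher and 3.99% lower. A count of 2 is too small to set that list apart. Me1, malic enzyme, rose from 44.8, 49.8 and 45.3 to 132, 122 and 133 CPM (log2 fold change 1.47 ± 0.10, adjusted p = 9.93e-07). G6pdx, the entry enzyme of the pentose phosphate pathway, was called at 1.02 ± 0.13 but dropped under the size threshold without replicate 3 of LL2 WT (0.88), without replicate 3 of KEAP1 KO #1 (0.96) and with either rescaling. Taldo1, transaldolase, was called at 1.17 ± 0.15 and missed the threshold without replicate 3 of LL2 WT (0.96). Txnrd1, thioredoxin reductase, rose from 151, 175 and 144 to 406, 429 and 415 CPM. Ikbkg, which encodes NEMO, rose from 16.7, 15.8 and 16.7 to 122, 134 and 115 CPM (log2 fold change 2.91 ± 0.10), but it lies at chrX:74393290-74453854 across G6pdx at chrX:74409483-74429194 on the opposite strand, and reads of overlapping transcripts may be misassigned. Of 14 ABC efflux transporters 5 rose and 0 fell, among them Abcc4, which exports cyclic nucleotides and prostaglandins, from 20.7, 21.4 and 20.3 to 65.1, 77.3 and 76.0 CPM.

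Hmox1, the heme oxygenase often used to follow NRF2, was not called. Its values were 44.9, 37.9 and 56.7 CPM in the parental line and 55.5, 53.2 and 59.8 CPM in the clone, which overlap. It was named after its values were seen. In the heme and iron list, 2 of 24 tested genes rose and 1 fell, against 4.55% and 3.99% of all genes, and such small counts do not set the list apart. Blvrb, a biliverdin reductase, rose from 23.9, 15.2 and 38.1 to 251, 171 and 217 CPM.

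**Figure D2:**
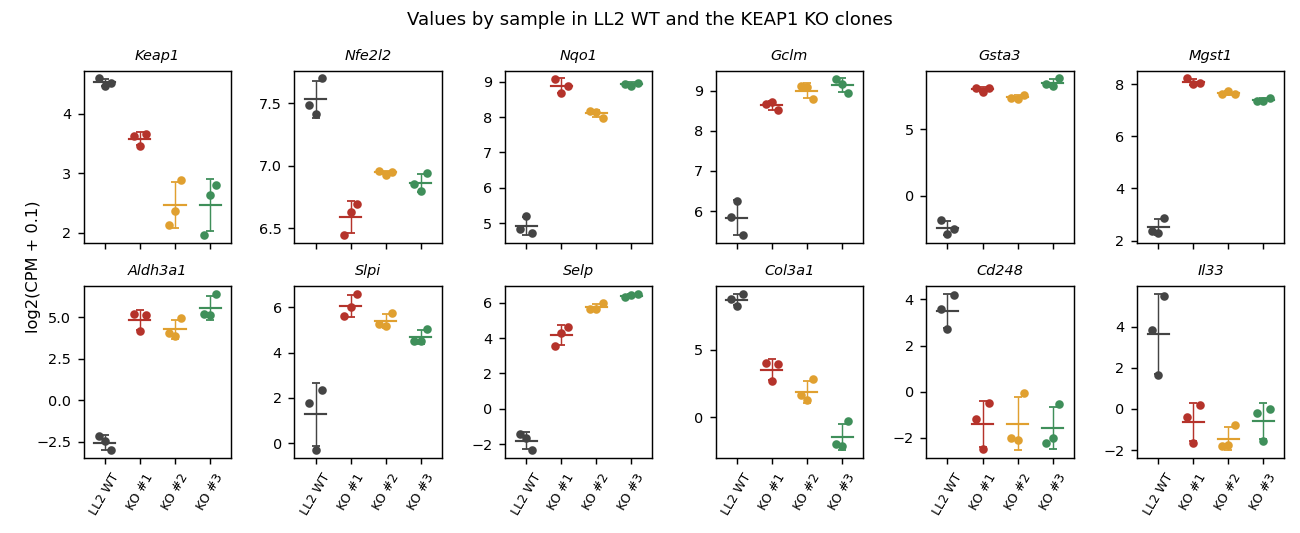
Log2(CPM + 0.1) of 12 genes in each library of LL2 WT and the KEAP1 KO clones, 1 point per library, with the mean and SD of 3 replicates as a bar and whiskers and a separate vertical scale for each gene. Keap1 is higher in KEAP1 KO #1 than in the other KO clones, the detoxification genes stand high in all 3 clones, and Col3a1, Cd248 and Il33 stand low in all 3.

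Lipid mediators and inflammatory genes changed in both directions. Of 19 prostaglandin and eicosanoid genes, 7 rose and 1 fell, and 7 of these 8 calls were shared by both other clones. Ptgs2, the inducible cyclooxygenase, rose from 16.4, 21.2 and 58.9 to 124, 151 and 222 CPM (log2 fold change 2.55 ± 0.37, adjusted p = 0.000361), and replicate 3 was the highest in both lines. Pla2g4a, which frees arachidonic acid from membranes, rose from 62.1, 70.3 and 59.0 to 166, 139 and 171 CPM. Lpl, lipoprotein lipase, rose from 4.01, 4.15 and 5.45 to 21.1, 24.5 and 27.9 CPM, whereas the desaturases Fads2 and Fads3 fell, Fads2 from 34.2, 35.4 and 32.6 to 10.204, 5.90 and 9.83 CPM. Sterol synthesis had 0 of 24 genes called.

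Of 21 chemokine and chemokine receptor genes tested, 5 rose and 0 fell, but every one of the 5 stayed under 5 CPM. Ccl20, a ligand of CCR6, was the one called higher in all 3 KEAP1 KO clones, from 0.114, 0 and 0 CPM to 0.747, 2.13 and 2.62 CPM. Cxcl10, Cxcl16, Cxcl2 and Cxcr2 were called against LL2 WT in this clone only, and of these Cxcl16 alone also differed from both other clones in the direct contrasts. These 5 were named after their values were seen, being below the level required for named genes. Slpi, a secreted inhibitor of neutrophil elastase, rose from 3.32, 0.698 and 5.00 to 48.8, 64.0 and 97.0 CPM, and Selp, P-selectin, an adhesion receptor best known from platelets and endothelium, from 0.272, 0.220 and 0.0949 to 11.8, 19.7 and 25.0 CPM. Among 44 interleukin and colony-stimulating factor genes 6 rose and 4 fell. Il33, an alarmin, was lower in this clone at 0.656, 0.219 and 1.03 CPM against 14.3, 3.01 and 45.3 CPM, and the call was lost without replicate 3 of LL2 WT (adjusted p = 0.0544) or without replicate 2 of KEAP1 KO #1 (adjusted p = 0.0583).

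Matrix glycoprotein genes were called lower more often than higher. Of 35 tested matrix and secreted glycoprotein genes 11 fell and 2 rose, and all 13 calls were shared by both other clones. The list's median log2 fold change was -0.65, against 0.113 over all genes. Col3a1, a fibrillar collagen chain, fell from 436, 310 and 563 to 15.7, 6.17 and 15.2 CPM (log2 fold change -5.20 ± 0.55, adjusted p = 3.29e-05). It carried nearly all of the summed fibroblast markers, which ranged from 318 to 583 CPM in the parental line and from 9.81 to 24.9 CPM in the clone. The fibroblast markers Col1a1, Col1a2, Dcn and Lum averaged only 0.461, 0.384, 0.350 and 0.0454 CPM in LL2 WT. Pdgfra averaged 11.4 CPM there and 6.54 CPM in the clone. In bulk RNA, fewer cells of a type and less RNA per cell cannot be told apart, and neither was tested here. Sparc, a collagen-binding glycoprotein, fell from 313, 267 and 283 to 93.8, 33.2 and 65.3 CPM, and Cd248, endosialin, from 12.04, 6.47 and 18.1 to 0.334, 0.0799 and 0.611 CPM. Vim, vimentin, fell from 4289 ± 1023 to 1853 ± 202 CPM (SD, n = 3), a log2 fold change of -1.19 ± 0.18 that was -0.98 after quantile normalisation. It was the only 1 of 5 mesenchymal markers to be called. Fn1, S100a4 and Zeb1 averaged 236, 1897 and 25.5 CPM in the parent and 92.1, 1321 and 21.4 CPM in the clone, and Cdh2 stood at 6.73 CPM in the parent and 10.8 CPM in the clone (log2 fold change 0.68 ± 0.18). Of 15 regulators of epithelial-mesenchymal transition 2 rose and 3 fell.

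The plasminogen system moved in opposite ways within 1 list. Of 43 matrix proteases and inhibitors 4 rose and 9 fell. Plau and Plat, the urokinase and tissue plasminogen activators, fell from 183, 88.2 and 361 to 21.5, 17.9 and 33.2 CPM and from 36.4, 30.9 and 40.2 to 7.97, 4.09 and 10.26 CPM, while Plaur, the urokinase receptor, rose from 20.9, 28.1 and 18.1 to 63.5, 69.8 and 68.0 CPM. Among cytoskeletal genes, Myh10, a non-muscle myosin heavy chain, fell from 23.1, 17.2 and 19.3 to 1.27, 0.599 and 0.920 CPM. Snai2, a zinc finger repressor of epithelial genes, fell from 37.8, 33.4 and 42.6 to 13.1, 15.8 and 14.97 CPM.

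Lists of signalling and adhesion genes differed in balance. Calls numbered 8 lower and 1 higher of 32 Wnt genes, 8 lower and 1 higher of 28 cadherins and protocadherins, and 12 lower and 6 higher of 47 axon guidance genes. Rises and falls were even in the TGF-beta and BMP list, with 5 each of 37, and in the Notch and Hedgehog list, with 3 each of 23. In the list of FGF, VEGF, PDGF and HGF genes 4 of 25 rose and 2 fell. Dkk2, a secreted Wnt antagonist, fell from 78.8, 55.6 and 140 to 11.6, 5.72 and 11.6 CPM, and Ntn1, netrin-1, from 26.0, 19.8 and 29.5 to 4.17, 2.40 and 4.72 CPM. Sema3c, a secreted semaphorin, rose from 0.254, 0.310 and 0.341 to 11.04, 7.93 and 9.61 CPM. Fgf10, a growth factor of branching lung epithelium, fell from 4.77, 5.51 and 9.22 to 0.114, 0.142 and 0.0499 CPM. Of 34 Gpr and adhesion receptors 5 rose and 6 fell, of 22 RGS and RAS regulators 2 rose and 5 fell, and of 36 immediate early and MAPK feedback genes 5 rose and 1 fell. Adcyap1r1, the receptor of the neuropeptide PACAP, fell from 8.01, 7.62 and 7.80 CPM to under 0.01 CPM in each clone library, and Rgs16, a regulator of G-protein signalling, from 5.32, 1.74 and 16.4 to 0.0452, 0.0600 and 0.275 CPM. Pde4b, a cAMP phosphodiesterase, fell from 11.3, 6.13 and 11.1 to 0.431, 0.112 and 0.335 CPM, whereas Prkg1, a cGMP-dependent kinase, rose from 0.110, 0.0529 and 0.305 to 5.28, 5.71 and 6.01 CPM.

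Several lists of basic cell machinery had no calls. Proteasome subunits (39 tested), cytosolic ribosomal proteins (81) and oxidative phosphorylation genes (82) had 0 calls, and their median log2 fold changes were 0.27, -0.24 and 0.20. An absent call does not show that these genes were equal in the lines. Of 50 cell cycle and replication genes 2 rose, near the 4.55% of all genes, and 0 fell, and of 35 glycolysis and HIF-1 genes 1 fell and 0 rose.

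**Figure D3:**
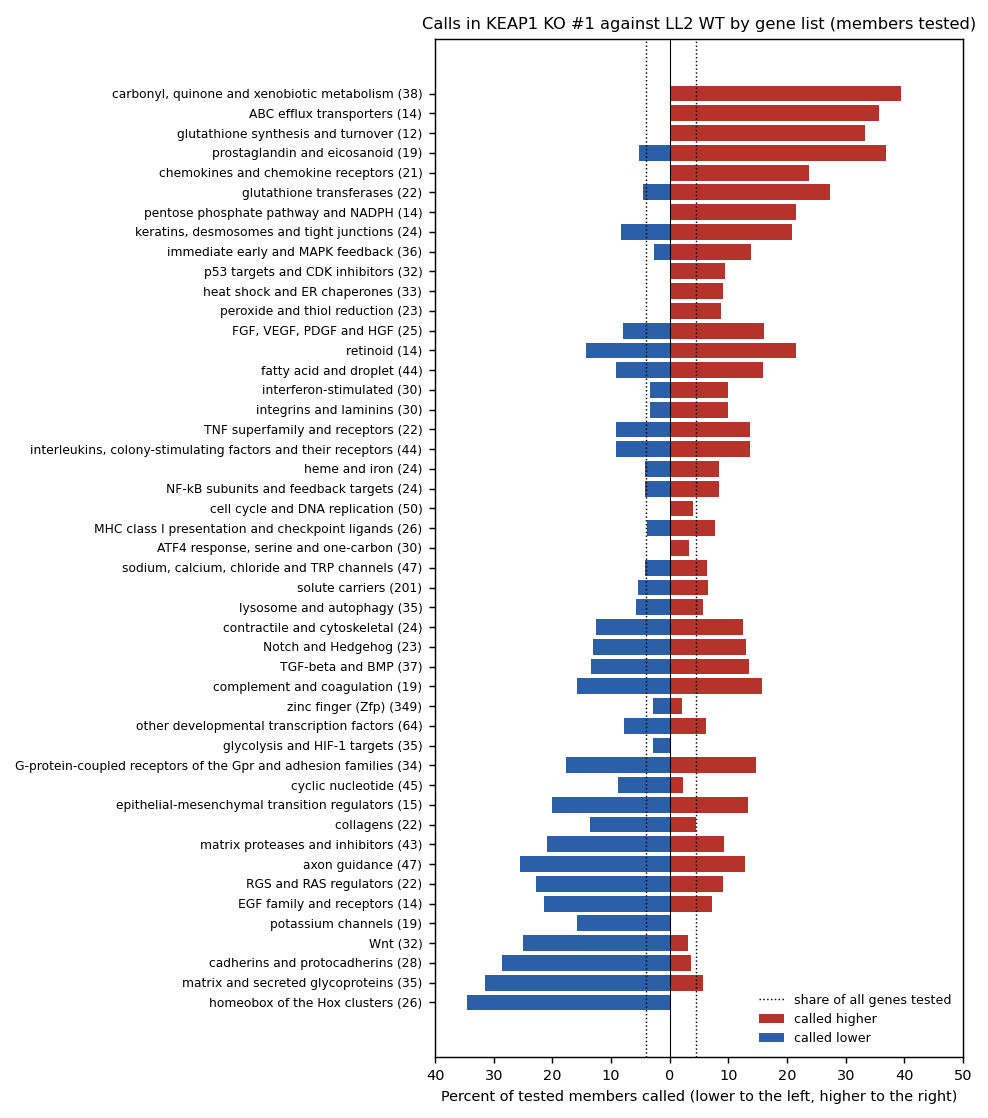
Percent of the tested members of each gene list called higher (red, to the right) or lower (blue, to the left) in KEAP1 KO #1 against LL2 WT, with the number tested in brackets and dotted lines at 4.55% and 3.99%, the shares of all genes tested. Lists without calls are left out. Detoxification, prostaglandin, ABC efflux and glutathione lists hold the most rises in proportion, and Hox, matrix glycoprotein and cadherin lists the most falls.

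Most of the calls of this clone recurred in the other KEAP1 KO clones. Against the same LL2 WT libraries, KEAP1 KO #2 had 5.94% of genes called higher and 7.75% lower, and KEAP1 KO #3 6.09% and 7.34%. The comparisons share these controls, so a recurring call is not independent of the first. Of the 667 higher genes, 419 (62.8%) were called higher in both other clones, 40 in KEAP1 KO #2 only and 48 in KEAP1 KO #3 only. Of the 584 lower genes, 386 (66.1%) were called lower in both, 43 in KEAP1 KO #2 only and 40 in KEAP1 KO #3 only. That leaves 143 higher and 108 lower genes called in this clone and in neither other, and 17 and 7 called the opposite way in at least 1 other clone.

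A missing call is not a difference, so the clones were also compared directly. KEAP1 KO #1 had 2.79% of genes called higher and 1.79% lower than KEAP1 KO #2, and 2.6% higher and 2.03% lower than KEAP1 KO #3. Of the 143 and 108 genes called in this clone only, 29 and 38 differed in the same direction from both other clones. With those called the opposite way elsewhere, 41 genes were higher and 44 lower in KEAP1 KO #1 alone. Of the 41, 9 reached 5 CPM and were not predicted genes, and of the 44, 21 did. The libraries of this clone did not overlap those of LL2 WT for 40 and 43 of them, against 37.0% of all genes tested. The genes were chosen by calls on these same libraries, so this is no separate evidence. The sets were sensitive to the processing: 12 of the 41 and 14 of the 44 held under all 15 alternatives, and leaving out replicate 2 of the clone left 25 lower genes and leaving out its replicate 3 left 25 higher genes. A fit of only LL2 WT and KEAP1 KO #1 cannot give these sets and is not among the 15.

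The genes higher in this clone alone included an aldo-keto reductase and a homeobox factor. Akr1c14 (chr13:4049011-4090688) encodes a hydroxysteroid dehydrogenase, and stood at 0.767, 0.705 and 1.16 CPM in the parental line and at 14.9, 9.98 and 10.9 CPM in the clone (log2 fold change 3.63 ± 0.33, adjusted p = 1.13e-05). KEAP1 KO #2 averaged 0.212 CPM and was called lower than LL2 WT, and KEAP1 KO #3 averaged 1.52 CPM. Its neighbour Akr1c18 was high in all 3 clones, at 6.37, 5.04 and 5.23 CPM on average, and the members of this cluster are similar enough in sequence that reads may be shared. Cdx2 (chr5:147300805-147307270), a homeobox factor of intestine and trophoblast, had 0.637, 0.752 and 0.735 CPM in the parental line and 6.12, 6.48 and 5.39 CPM in the clone, but was listed at 0 in all KEAP1 KO #2 libraries and averaged 0.162 CPM in KEAP1 KO #3. Both other clones were called lower than LL2 WT for it. The NRF2 KO clone was low as well, at 0.0341 CPM on average (log2 fold change against LL2 WT -2.62, adjusted p = 0.000565 in limma).

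Further genes of this set had varied functions. Zfp979, a zinc finger gene, rose from 1.53, 1.34 and 1.28 to 11.2, 14.5 and 10.5 CPM and averaged 1.08 and 1.17 CPM in the other clones. It belongs to a family of similar zinc finger genes, and its reads may be shared with them. Esx1, an X-linked homeobox factor of placenta, rose from 2.04, 1.17 and 2.65 to 16.0, 7.13 and 10.5 CPM, and Rasl11a, a small GTPase, from 3.00, 3.99 and 3.52 to 16.1, 8.12 and 8.32 CPM. Akr1c14, Cdx2, Zfp979, Esx1 and Rasl11a held under all 15 alternatives. Less firm were Nrg1, neuregulin-1, a ligand of ERBB3 and ERBB4, at 1.92, 3.32 and 2.61 against 7.55, 6.39 and 8.61 CPM, which kept its place in this set under 6 of the 15, and Trf, transferrin, at 1.28, 1.25 and 2.51 against 6.20, 3.22 and 14.6 CPM, under 8. The call of Trf against LL2 WT itself (adjusted p = 0.0442) was lost in turn without 5 single libraries, with adjusted p up to 0.161 without replicate 3 of the clone. At lower levels, growth factor genes recurred: Pdgfrb, a PDGF receptor, at 0.654, 0.614 and 0.822 against 6.61, 1.92 and 4.10 CPM, and Angpt1, angiopoietin-1, at 0.403, 0.272 and 0.277 against 3.05, 1.80 and 2.66 CPM. Both were called lower than LL2 WT in KEAP1 KO #2, and Pdgfrb in KEAP1 KO #3 as well.

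**Figure D4:**
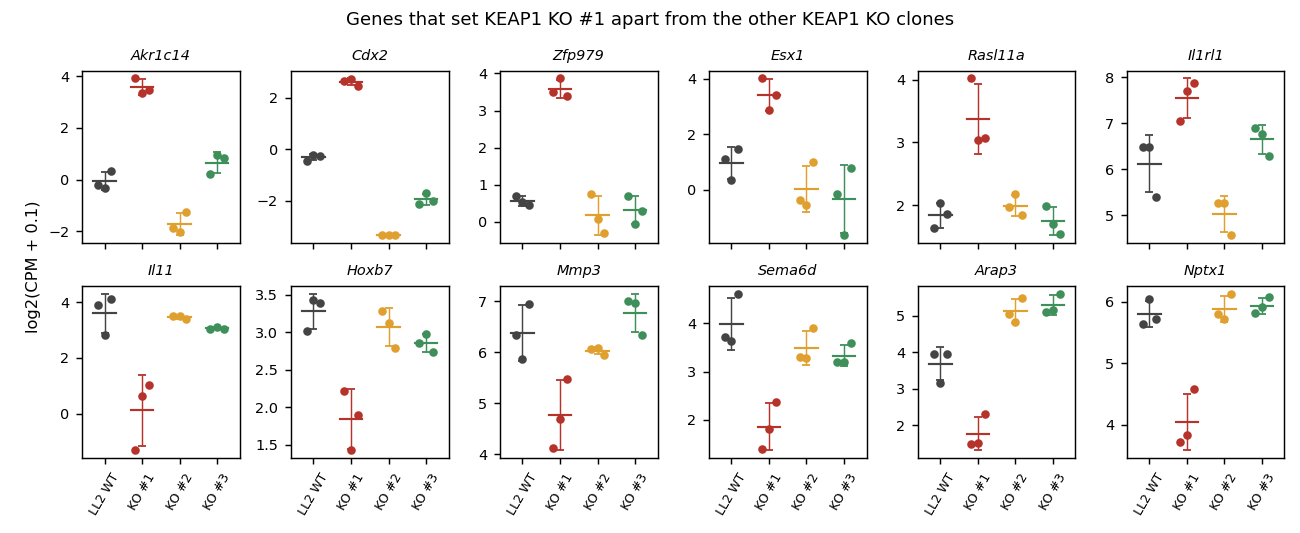
Log2(CPM + 0.1) of 12 genes in each library of LL2 WT and the KEAP1 KO clones, 1 point per library, with the mean and SD of 3 replicates as a bar and whiskers and a separate vertical scale for each gene. In the upper row the 3 libraries of KEAP1 KO #1 lie above all libraries of the other lines shown, and in the lower row below them. Il1rl1 is shown for its opposite calls and is not among the 41 genes.

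Among the genes lower in this clone alone were a cytokine, a pair of semaphorins and Hox genes. Il11 (chr7:4772373-4782859), a cytokine of the IL-6 family, fell from 14.8, 6.89 and 17.0 to 0.299, 1.45 and 1.94 CPM (log2 fold change -3.49 ± 0.52, adjusted p = 0.000465). KEAP1 KO #2 had 11.3, 11.2 and 10.4 CPM and KEAP1 KO #3 had 8.05, 8.52 and 8.14 CPM, within the range of LL2 WT. Mmp3, the stromelysin-1 protease, fell from 80.5, 58.1 and 124 to 17.2, 25.7 and 44.7 CPM, with averages of 65.4 and 112 CPM in the other clones. Sema6d and Sema7a, transmembrane and membrane-anchored semaphorins, fell from 13.05, 12.33 and 24.3 to 2.52, 3.42 and 5.05 CPM and from 4.78, 3.90 and 4.05 to 0.548, 0.690 and 1.04 CPM. Disp2, a relative of the protein that releases Hedgehog ligands, fell from 7.53, 4.22 and 12.34 to 0.538, 0.699 and 1.11 CPM. Nptx1, a secreted neuronal pentraxin, fell from 49.97, 65.7 and 52.7 to 13.2, 14.2 and 23.8 CPM, and Raet1e, a ligand of the NKG2D receptor of natural killer cells, from 30.04, 23.9 and 33.9 to 13.2, 11.5 and 12.9 CPM. Il11, Sema6d, Sema7a, Disp2, Nptx1 and Raet1e held under all 15 alternatives and Mmp3 under 13. Another semaphorin, Sema3d, went the other way and was higher in this clone alone, at 0.106, 0.0205 and 0.161 CPM in the parent and 2.80, 1.13 and 3.49 CPM in the clone, also under all 15 alternatives. Sema3d, Sema7a and Raet1e were named after their values were seen. Rpl19-ps11, a ribosomal pseudogene, is also in this set, but its values ranged from 4.45 to 66.4 CPM within KEAP1 KO #2 alone and its reads cannot be told from those of its parent gene.

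Hox genes fell mainly in the HoxB cluster, which patterns the body axis with the other Hox clusters. All 8 HoxB genes tested were called lower in KEAP1 KO #1, with a median log2 fold change of -2.05, and 3 were called lower in each of the other clones, whose medians were -0.97 and -1.19. Of 11 HoxA genes 1 was called lower, and of the 1 HoxC and 6 HoxD genes tested, 0. KEAP1 KO #3 had 3 HoxD genes called lower. The split by cluster was made after these values were seen. Hoxb2 (chr11:96350525-96354012) fell from 6.46, 5.81 and 8.81 to 2.01, 1.71 and 1.86 CPM (log2 fold change -1.84 ± 0.26, adjusted p = 0.000357), and Hoxb7 (chr11:96286623-96290162) from 7.98, 10.7 and 10.4 to 4.55, 2.58 and 3.61 CPM (-1.44 ± 0.20, adjusted p = 0.000283). Both, with Hoxb4, were lower than in either other clone. The margin for Hoxb2 against KEAP1 KO #3 was narrow, at -1.01 ± 0.26 (adjusted p = 0.0256), and it kept its place in the set under 9 of the 15 alternatives.

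Chromosome 11 held more of the lower genes than its share. Of 1108 genes tested there, 79 (7.13%) were called lower, against 3.99% over all, and 32 (2.89%) higher, against 4.55%. It also held 12 of the 44 genes lower in this clone alone, beside 1108 of the 14097 tested genes with a position. Chromosome 10 held 7 of the 44, beside 701 of the tested genes. Of the 12, Ebf1 starts at position 44617317 and the rest start between positions 79526560 and 120653788 (GRCm38), among them Evi2a, Hoxb2, Hoxb4, Hoxb7, Epop, Tanc2, Llgl2, Engase and Nptx1. Over genes of at least 1 CPM, the median log2 fold change of chromosome 11 lay 0.119 under that of all genes in KEAP1 KO #1, 0.0377 under it in KEAP1 KO #2 and 0.1003 under it in KEAP1 KO #3. Chromosomes 10, 17 and 19 lay 0.119, 0.120 and 0.117 under it in KEAP1 KO #1, so a whole-chromosome shift of this size was not particular to chromosome 11. Chromosomes 17 and 19 held only 1 and 0 genes lower in this clone alone. A median over a whole chromosome does not describe the stretch where most of the 12 genes lie. These are descriptions of expression. Copy number was not measured, and its part in the result was not tested.

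**Figure D5:**
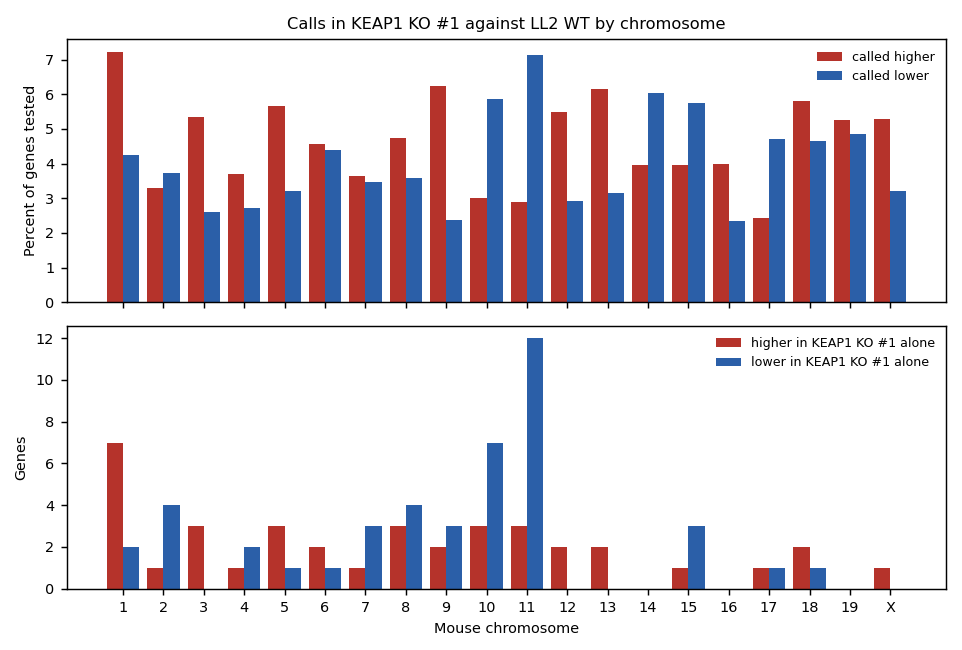
Upper panel, percent of the genes tested on each chromosome that were called higher (red) or lower (blue) in KEAP1 KO #1 against LL2 WT. Lower panel, number of genes on each chromosome that were higher (red) or lower (blue) in this clone alone. Chromosome 11 has the highest share of lower calls, 7.13%, and 12 genes lower in this clone alone.

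Some genes went opposite ways in the clones. Of the 24 called in opposite directions in this clone and at least 1 other, 17 were higher here and 7 lower. Arap3, a GTPase-activating protein for ARF6, fell from 15.4, 8.83 and 15.3 to 2.72, 2.75 and 4.84 CPM here and averaged 35.6 and 39.7 CPM in KEAP1 KO #2 and #3, where it was called higher than LL2 WT. Il1rl1, the IL-33 receptor ST2, was measured at 88.8, 88.7 and 42.0 CPM in LL2 WT and at 132, 207 and 234 CPM here, and averaged 33.3 CPM in KEAP1 KO #2, where it was called lower, and 102 CPM in KEAP1 KO #3. The Il1rl1 call of this clone (log2 fold change 1.42 ± 0.37, adjusted p = 0.0150) was lost without replicate 3 of LL2 WT (adjusted p = 0.0639), without replicate 2 of the clone (adjusted p = 0.0584) and without its replicate 3 (adjusted p = 0.0576).

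A minority of the shared calls differed in size from both other clones, and among these the change in KEAP1 KO #1 was mostly the smaller one. Of the 419 genes called higher in all 3 clones, 49 (11.7%) were lower in this clone than in both others in the direct contrasts and 4 were higher. Of the 386 called lower in all 3, 42 (10.9%) fell less here and 4 fell more. Serpinb9b, a serpin, reached 5.51, 9.21 and 6.14 CPM from 1.89, 1.45 and 0.698 CPM, against 58.2 and 47.0 CPM on average in the other clones (log2 differences -3.06 ± 0.33 and -2.76 ± 0.33). Ano1, a calcium-activated chloride channel, reached 16.5, 16.1 and 20.8 CPM from 6.48, 5.84 and 4.83 CPM, against 69.9 and 60.6 CPM. Vcam1, an adhesion receptor for leukocyte integrins, fell from 118, 98.0 and 154 to 37.7, 26.5 and 47.0 CPM here and to 10.6 and 8.33 CPM on average in the others. Snai2, which averaged 14.6 CPM here, was at 2.31 and 3.97 CPM.

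The 8 shared genes with the larger change in KEAP1 KO #1 were Ccn5, Macc1, Adgre5 and Ces1g among the rises and Fscn1, Dhrs9, Cyba and Myh10 among the falls. Ccn5, a secreted matricellular protein, stood at 0.211, 0.337 and 0.701 CPM in LL2 WT and at 28.0, 8.94 and 16.3 CPM here, against averages of 1.37 and 1.74 CPM in the other clones (log2 differences 3.56 ± 0.50 and 3.26 ± 0.50, adjusted p = 0.00071 and 0.00132). Macc1, a regulator of MET expression, rose from 0.236, 0.619 and 0.283 to 7.96, 8.51 and 11.5 CPM, against 1.86 and 3.87 CPM. Fscn1, the actin-bundling protein fascin, fell from 193, 208 and 171 to 56.6, 25.6 and 37.4 CPM, against 78.3 and 89.7 CPM. Cyba, the p22phox subunit of NADPH oxidases, fell from 32.6, 40.2 and 26.1 to 4.11, 2.93 and 3.24 CPM, against 7.76 and 8.03 CPM. Apart from genes that the naming rule took, these were chosen after their values were seen.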

How the data were processed

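LL2 cells and edited clones were cultured in triplicate, and mRNA libraries were made with a KAPA mRNA HyperPrep kit. The study's methods name Kallisto against mouse cDNA of GRCm38.p6, while the labels name GRCm39 and bcl2fastq 1.9.0, so the build of the transcripts is uncertain. The authors deposited CPM values per gene symbol for 15 libraries. The methods give only an average read depth for the series, and the files hold neither counts nor the depth of each library. No interval for counting error was therefore computed. P-values and SEs measure only the spread between replicate libraries of the same line, estimated in 1 fit over all 5 lines. They do not measure the spread between clones.

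Of 35880 genes, 14652 with CPM summing to 3 or more were kept, 0.1 CPM was added, and log2 values were fitted with limma 3.58.1 (R 4.3.3) to the means of the 5 lines, with a trended variance prior. P-values were adjusted by the Benjamini-Hochberg method over all genes tested. Calls required an adjusted p below 0.05 together with a log2 fold change beyond 1 in either direction. A gene was counted as higher or lower in KEAP1 KO #1 alone if it was called against LL2 WT, not called the same way in KEAP1 KO #2 or #3, and called the same way against each of them directly. The script was tested on simulated data. Tables and figures were made with Python 3.11.15, pandas 2.3.3 and matplotlib 3.10.9.

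The comparison, gene lists and markers were chosen with earlier results of these data known. Named genes were Keap1, Nfe2l2, the 15 largest rises and falls at 5 CPM or more without overlap between the lines, the first 12 in each direction in this clone alone, the 4 largest calls in each list and the 5 widest opposite calls. Predicted genes were left out. Cbr3, Adh7, Hoxb4 and the further genes listed on chromosome 11 were named after their values were seen, besides those marked in the text. Gene positions are from GENCODE vM21 (GRCm38) and start-site windows from RefSeq. Alternatives varied the pseudocount, filter, scaling, replicate terms, libraries and samples in the fit.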

Additional observations from a re-analysis of the deposited data

Results flagged for a closer look

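The difference between KEAP1 KO #1 and the other KEAP1 KO clones was tested by direct contrasts in limma. By these, 41 genes were higher and 44 lower in KEAP1 KO #1 alone. A further comparison found 24 genes called in opposite directions in this clone and another, each direction being a call against the same LL2 WT libraries. Of the 24, 12 of the 17 higher genes and 6 of the 7 lower genes also differed directly from both other clones.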

How the results depend on the processing

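With a pseudocount of 1 CPM, 371 genes were called higher, and 22 were higher and 20 lower in this clone alone. With 0.5 CPM, 26 were lower alone. Without a filter 85 genes were higher alone, and with a filter of 1 CPM in 3 or more samples 26 were. With only LL2 WT and KEAP1 KO #1 in the fit, 480 genes were called higher and 434 lower. Mmp3 (adjusted p = 0.0555), Il1rl1 (adjusted p = 0.0534) and Trf (adjusted p = 0.0766) were among the named genes that lost their call there. Leaving out single libraries gave 537 to 787 higher and 385 to 745 lower calls, and 25 to 48 genes higher and 25 to 49 lower alone. The lowest counts of lower calls (385) and of genes lower alone (25) came without replicate 2 of KEAP1 KO #1, and that of genes higher alone (25) without its replicate 3. The causes were not tested. Same-numbered libraries of LL2 WT and KEAP1 KO #1 had correlations of 0.086, 0.436 and 0.459 in their deviations from the line means, and each correlated best with its own number, a hint from the data and not from the design. The first is under 0.1, so the numbers were not taken to pair the libraries. With the replicate number as a block, 790 genes were called higher and 807 lower, and 63 were higher alone. Replicate 3 was alike across the series. Its deviations correlated in every pair of lines, from 0.422 (KEAP1 KO #1 and #3) to 0.631 (LL2 WT and NRF2 KO). A term for replicate 3 gave 788 higher and 807 lower calls. Leaving replicate 3 of every line out gave 593 and 627. Of the named genes' values under the alternatives, 126 lost their call, 5 gained one and 0 changed direction. The depth of each library is not in the files, which limits what can be said of genes under 1 CPM.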
